A study of Mus musculus with 12 samples.

Results

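Abhd18, Pdxp and Resf1 are 3 little-studied genes whose UMI counts differed between tumour T cells of isotype-treated and anti-ACBP-treated mice. They are 3 of the 32285 gene symbols in the expression matrices. They were chosen by name from that same difference, so every value of the treatment contrast below describes them and carries no test. The study grew MCA205, a mouse fibrosarcoma line, under the skin of C57Bl/6 mice, with 300000 cells injected per animal. All 6 mice received chemoimmunotherapy, which was 10 mg/kg of oxaliplatin on day 8 and 200 µg of an antibody to PD1 another 8 days later. In 3 mice an antibody also neutralised ACBP/DBI, the acyl-CoA binding protein, and in the 3 control mice an IgG2a isotype antibody took its place. Dosing of either antibody (2.5 mg/kg, every 2 days) began 2 days ahead of oxaliplatin and ended 1 day ahead of anti-PD1. The tumours were taken 2 days after anti-PD1, and equal parts of CD4+ and CD8+ T cells sorted from them were pooled per animal. The lineage ratio therefore does not describe the tumour, and it was not equal among the cells kept. By their own UMIs, isotype mouse 2 kept 2197 CD8 and 2515 CD4 lineage cells, and anti-ACBP mouse 1 kept 4136 and 1808. There was no arm without chemoimmunotherapy among the samples used here, and no age was used. Each of the 6 libraries is taken here as 1 mouse, a reading of the 3 mice and 3 libraries per group that the labels do not state outright.

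Abhd18 belongs to the alpha/beta hydrolase-fold proteins and has been described as a mitochondrial hydrolase that acts on cardiolipin, the signature lipid of the inner mitochondrial membrane. Pdxp, also called chronophin, is a phosphatase of the haloacid dehalogenase (HAD) superfamily that removes the phosphate from pyridoxal phosphate, the active form of vitamin B6, and from cofilin, an actin-severing protein. Resf1, retroelement silencing factor 1, is a nuclear protein that works with the histone methyltransferase Setdb1 in silencing endogenous retroviruses. None of the genes has a well-known role in T cells.

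On the GRCm38.p6 assembly (mm10), RefSeq places Abhd18 at chr3:40871095-40938138, Pdxp at chr15:78912160-78919517 and Resf1 at chr6:149309409-149335663, on separate chromosomes. All are protein-coding genes. Their RefSeq promoter windows, 250 bases before to 50 bases after the listed transcript start and read 5′ to 3′ on the plus strand, are printed because the ranges of the groups did not overlap for any of these genes in any T cell class. The windows are chr3:40894009-40894308 for Abhd18, chr15:78913669-78913968 for Pdxp and chr6:149309164-149309463 for Resf1. The Abhd18 and Pdxp windows lie inside the gene spans given above, so their listed transcript start is not the first base of the span. Other starts of these genes were not searched. Capitals mark the CCAAT box (CCAAT) and the core letters of a hypoxia response element (ACGTG or GCGTG), each searched on both strands.
Abhd18 promoter: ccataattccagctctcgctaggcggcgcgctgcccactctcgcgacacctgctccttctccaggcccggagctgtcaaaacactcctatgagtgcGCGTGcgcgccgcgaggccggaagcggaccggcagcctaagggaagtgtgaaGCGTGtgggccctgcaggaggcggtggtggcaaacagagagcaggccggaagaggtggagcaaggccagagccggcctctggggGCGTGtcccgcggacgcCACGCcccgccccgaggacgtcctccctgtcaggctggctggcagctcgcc
Pdxp promoter: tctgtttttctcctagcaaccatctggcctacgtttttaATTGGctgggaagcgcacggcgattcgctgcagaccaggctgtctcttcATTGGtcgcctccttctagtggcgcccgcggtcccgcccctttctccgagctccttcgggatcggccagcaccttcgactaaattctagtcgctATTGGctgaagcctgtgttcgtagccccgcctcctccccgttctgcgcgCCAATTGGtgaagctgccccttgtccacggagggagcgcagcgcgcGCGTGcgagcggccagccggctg
Resf1 promoter: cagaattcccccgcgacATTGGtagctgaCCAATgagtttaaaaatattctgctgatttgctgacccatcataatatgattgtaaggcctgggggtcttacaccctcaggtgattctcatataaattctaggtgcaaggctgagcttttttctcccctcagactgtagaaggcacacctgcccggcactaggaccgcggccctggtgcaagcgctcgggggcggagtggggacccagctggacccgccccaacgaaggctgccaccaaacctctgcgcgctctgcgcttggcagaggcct

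The Abhd18 window held 4 matches to the hypoxia core and no CCAAT box. The Pdxp window held 1 hypoxia core and 5 CCAAT matches, of which the run CCAATTGG counts as a match on each strand. The Resf1 window held no hypoxia core and 2 CCAAT matches. Of 32851 RefSeq promoter windows of the same length, 43.8% held at least 1 hypoxia core and 37.4% held a CCAAT box, so both motifs were common. The ETS motif CCGGAAG occurred at 2 positions in the Abhd18 window, in neither of the other windows, and in 8.86% of all windows. The GC box GGGCGG occurred in all of them, with 1 match in Abhd18, 1 in Pdxp and 2 in Resf1, and in 35.7% of all windows. No window held the E-box CACGTG, the AP-1 motif TGANTCA, the cyclic AMP motif TGACGTCA or the FOXO motif GTAAACA. G and C made up 69.3% of the Abhd18 window, 62% of the Pdxp window and 56.0% of the Resf1 window, against a median of 52.7%. A match describes letters in the window and not a bound site.

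The authors' cell table kept 30749 of 69249 barcodes, from 2923 to 7238 cells and from 27791735 to 65519423 UMIs per library. In 1078 of these cells the barcode sequence, 1 of 536 such sequences, also occurred in another library. The cells fell into 3 classes, with 16945 CD8, 8902 conventional CD4 and 4706 regulatory T cells. The classes mostly followed the authors' clusters, so each also held cells whose own Cd4 and Cd8 UMIs pointed to the other lineage. A further 196 cells could not be classed. Levels are given as CPM, a gene's UMIs scaled to 1000000 summed UMIs of a mouse's cells, with receptor and immunoglobulin segments left out. The T cell markers summed to between 3265 and 4744 CPM. Over all classes and mice, marker sums of other cells reached at most 48.2 CPM for endothelial, 26.3 for NK, 25.4 for macrophage, 24.4 for dendritic, 14 for B cell, 0.667 for fibroblast or tumour and 0.469 for neutrophil lists, with Adgre1 and Ms4a1 at 0 in each class. Of these sums, 3 did not overlap between the groups. Conventional CD4 T cells had endothelial sums of 22.9 to 25.7 CPM with isotype and 14.7 to 22.2 CPM with anti-ACBP, and dendritic sums of 2.19 to 2.38 and 2.47 to 2.54 CPM. Regulatory T cells had fibroblast or tumour sums of 0 to 0.310 and 0.373 to 0.667 CPM. In conventional CD4 T cells Kdr was at 0, so that endothelial sum rests on Pecam1 and Cdh5. A sum does not tell whether its RNA came from other cells or from the T cells themselves. The part of other cells in the results was not tested.

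Abhd18, the putative cardiolipin hydrolase, was lower in every anti-ACBP mouse than in every isotype mouse, in each of the 3 classes. In CD8 T cells it stood at 29.6, 23.4 and 24.7 CPM in isotype mice 1, 2 and 3, and at 10.4, 10.0 and 11.8 CPM in anti-ACBP mice 1, 2 and 3. These levels rest on 329 to 947 Abhd18 UMIs per isotype library and 172 to 391 per anti-ACBP library, and the groups were far apart. The edgeR log2 fold change of anti-ACBP over isotype was -1.30 ± 0.12 (SE, 3 mice per group), a level 2.46-fold lower.

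In conventional CD4 T cells, Abhd18 was at 20.3, 18.8 and 20.5 CPM in the isotype mice and at 7.55, 7.78 and 11 CPM in the anti-ACBP mice. Anti-ACBP mouse 3 was the highest of its group and still well under the isotype range. The log2 fold change was -1.15 ± 0.16 (SE). In regulatory T cells the gene was at 25.4, 20.1 and 26.5 CPM in isotype mice and at 11.9, 11.8 and 11 CPM in anti-ACBP mice, a log2 fold change of -1.07 ± 0.16 (SE). The anti-ACBP mice lay within 1 CPM of each other there, while isotype mouse 2 was the lowest of its group.

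Pdxp, the pyridoxal phosphatase, was also lower with anti-ACBP, and its counts were smaller. In CD8 T cells the isotype mice had 15.5, 10.1 and 11.6 CPM and the anti-ACBP mice 5.50, 6.37 and 5.50 CPM. Isotype mouse 1 was the highest. The log2 fold change was -1.15 ± 0.18 (SE), or -0.93 without isotype mouse 1. In conventional CD4 T cells the isotype mice had 14.5, 12.9 and 15.3 CPM and the anti-ACBP mice 5.57, 6.19 and 6.22 CPM, a log2 fold change of -1.23 ± 0.15 (SE). The regulatory T cells differed least, with 12.1, 7.48 and 8.90 CPM in isotype mice against 7.27, 6.00 and 4.90 CPM in anti-ACBP mice. Isotype mouse 2 and anti-ACBP mouse 1 were almost level in that class, at 41 and 39 Pdxp UMIs. The log2 fold change was -0.66 ± 0.25 (SE), and it shrank to -0.39 without isotype mouse 1.

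Resf1, the retroelement silencing factor, was higher with anti-ACBP in all classes. In CD8 T cells it was at 83.4, 69.8 and 74.0 CPM in the isotype mice and at 118, 105 and 119 CPM in the anti-ACBP mice. In conventional CD4 T cells the isotype mice had 71.5, 74.8 and 82.7 CPM and the anti-ACBP mice 115, 104 and 112 CPM. The log2 fold change was 0.56 ± 0.09 (SE) in CD8 and 0.55 ± 0.09 (SE) in conventional CD4 T cells, each a level 1.47-fold higher. Regulatory T cells had the highest Resf1 levels, at 90.2, 112 and 105 CPM in isotype mice and 149, 157 and 150 CPM in anti-ACBP mice. The log2 fold change of 0.56 ± 0.09 (SE) there was the same size as in the other classes.

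The 3 genes in 3 classes make 9 pairs of groups, and in all 9 the isotype and anti-ACBP ranges did not overlap. Among all genes tested, the groups did not overlap for 24.4% in the CD8, 21% in the conventional CD4 and 26.8% in the regulatory class. Because the genes were picked on this contrast, nothing is read from that comparison. Group means were 25.9 ± 3.30 against 10.8 ± 0.922 CPM for Abhd18, 12.4 ± 2.82 against 5.79 ± 0.499 CPM for Pdxp and 75.7 ± 7.0 against 114 ± 7.5 CPM for Resf1 in CD8 T cells (SD, n = 3 mice).

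**Figure D1:**
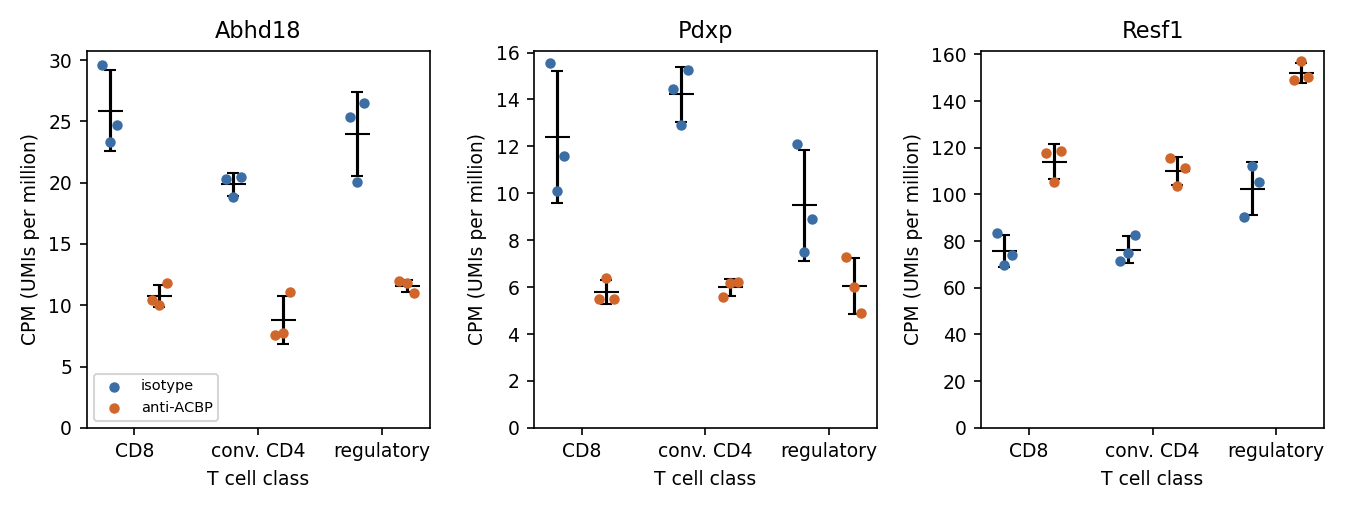
Level of each gene (CPM) in the summed cells of each mouse, by T cell class; points are mice, the horizontal line is the mean of 3 mice and bars are 1 SD. All isotype points lie above the anti-ACBP points for Abhd18 and Pdxp and below them for Resf1, with the smallest gap for Pdxp in regulatory T cells.

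The same differences were present in the share of cells with at least 1 UMI once each cell was thinned to 2000 UMIs. In CD8 T cells, 5.10% ± 0.689 of isotype cells and 2.27% ± 0.216 of anti-ACBP cells held an Abhd18 UMI at that depth (SD, n = 3). For Pdxp the shares were 2.47% ± 0.513 and 1.12% ± 0.0493, and for Resf1 14.5% ± 1.08 and 20.5% ± 1.28. The ranges did not overlap for any of the genes. Without thinning, the CD8 shares were 15.6% against 9.22% for Abhd18, 8.09% against 5.21% for Pdxp and 35.6% against 53.7% for Resf1. Thinning left out 286 isotype and 186 anti-ACBP CD8 cells that had fewer UMIs. Median depth per CD8 cell ran from 5140 to 7392 UMIs in isotype and from 7317 to 8308 UMIs in anti-ACBP libraries. The sort held no cell type known to lack these genes, so no background share could be set beside them.

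Thinned shares in conventional CD4 T cells were 3.85% ± 0.107 against 1.79% ± 0.353 for Abhd18 and 2.76% ± 0.259 against 1.13% ± 0.0476 for Pdxp. The Pdxp shares of regulatory T cells overlapped, at 1.73% ± 0.417 against 1.29% ± 0.294. Resf1 was found in 20.1% ± 0.815 of isotype and 27.7% ± 0.768 of anti-ACBP regulatory T cells at 2000 UMIs, with no overlap. Most Abhd18-positive and Pdxp-positive cells carried a single UMI, for Abhd18 82.4% of positive isotype CD8 cells and 90.4% of positive anti-ACBP CD8 cells. Resf1-positive CD8 cells held 1.56 UMIs on average in isotype and 2.0 in anti-ACBP mice.

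The deposited table divides the cells into clusters numbered 0 to 8, and the direction was the same in all 9. Since the clusters were made from the genes of these cells, their levels are described without a test. Abhd18 was lower in 9 of 9 clusters, and the log2 ratio of mean CPM ranged from -1.41 to -0.28. Its groups overlapped in clusters 5, 6 and 8. The -0.28 is that of cluster 8, from 3, 0 and 6 Abhd18 UMIs in anti-ACBP mice 1, 2 and 3. Pdxp was lower in 9 of 9, from -2.07 to -0.57, with overlap in clusters 2, 6 and 8. The -2.07 is that of cluster 7, from 3, 3 and 0 Pdxp UMIs in the anti-ACBP mice. Resf1 was higher in 9 of 9, from 0.41 to 0.76, with overlap in cluster 8. Overlap over all genes was not counted by cluster. Because the genes were chosen on this contrast, nothing is read from the shared direction.

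In isotype mice Abhd18 was highest in cluster 0, the large CD8 cluster led by Cd8a and Ifit3, at 31.6 ± 4.17 CPM (SD, n = 3). The next cluster was 3, the CD8 cells with granzymes C to G, at 25.6 ± 2.48 CPM, and its range lay under that of cluster 0. From there each neighbour in the order overlapped the one above, through clusters 2, 8, 1, 7, 5 and 6 down to 15.4 ± 4.43 CPM in cluster 4. Cluster 4 is led by histone genes, and all of its cells are called S or G2M. Cluster 4 was the lowest with anti-ACBP too, at 7.67 ± 0.742 CPM.

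Pdxp had its highest isotype mean in that cycling cluster 4, at 15.3 ± 3.54 CPM, and its lowest in cluster 2, the Foxp3 cluster, at 9.30 ± 2.44 CPM. All neighbours in its order overlapped, so the ranks in between are not separated. With anti-ACBP, Pdxp was lowest in cluster 7, the CD4 cluster led by Penk, at 4.25, 4.35 and 0 CPM. The 0 in anti-ACBP mouse 3 comes from 96 cells and allows up to 3.88 CPM, counting error only.

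Resf1 was highest in the Foxp3 cluster 2 in isotype mice, at 103 ± 11.2 CPM, next to cluster 8 at 98.9 ± 12.5 CPM, which overlapped it. Cluster 1, the Tcf7 and Ccr7 cells, followed at 83.6 ± 2.96 CPM without overlap with cluster 8. Cluster 7 was the lowest, with 54.6 to 66.4 CPM over the 3 mice. With anti-ACBP, cluster 8 had the highest mean, at 167 ± 53.4 CPM, and overlapped cluster 2. Cluster 2 reached 154 ± 4.40 CPM and cluster 6, led by Gzma, 132 ± 6.22 CPM, and those ranges did not overlap. Cluster 7 was again the lowest, at 79.7 ± 12.8 CPM. Cluster 8, whose leading genes are heat-shock genes, had only 14 to 46 cells per anti-ACBP library and the widest spreads.

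**Figure D2:**
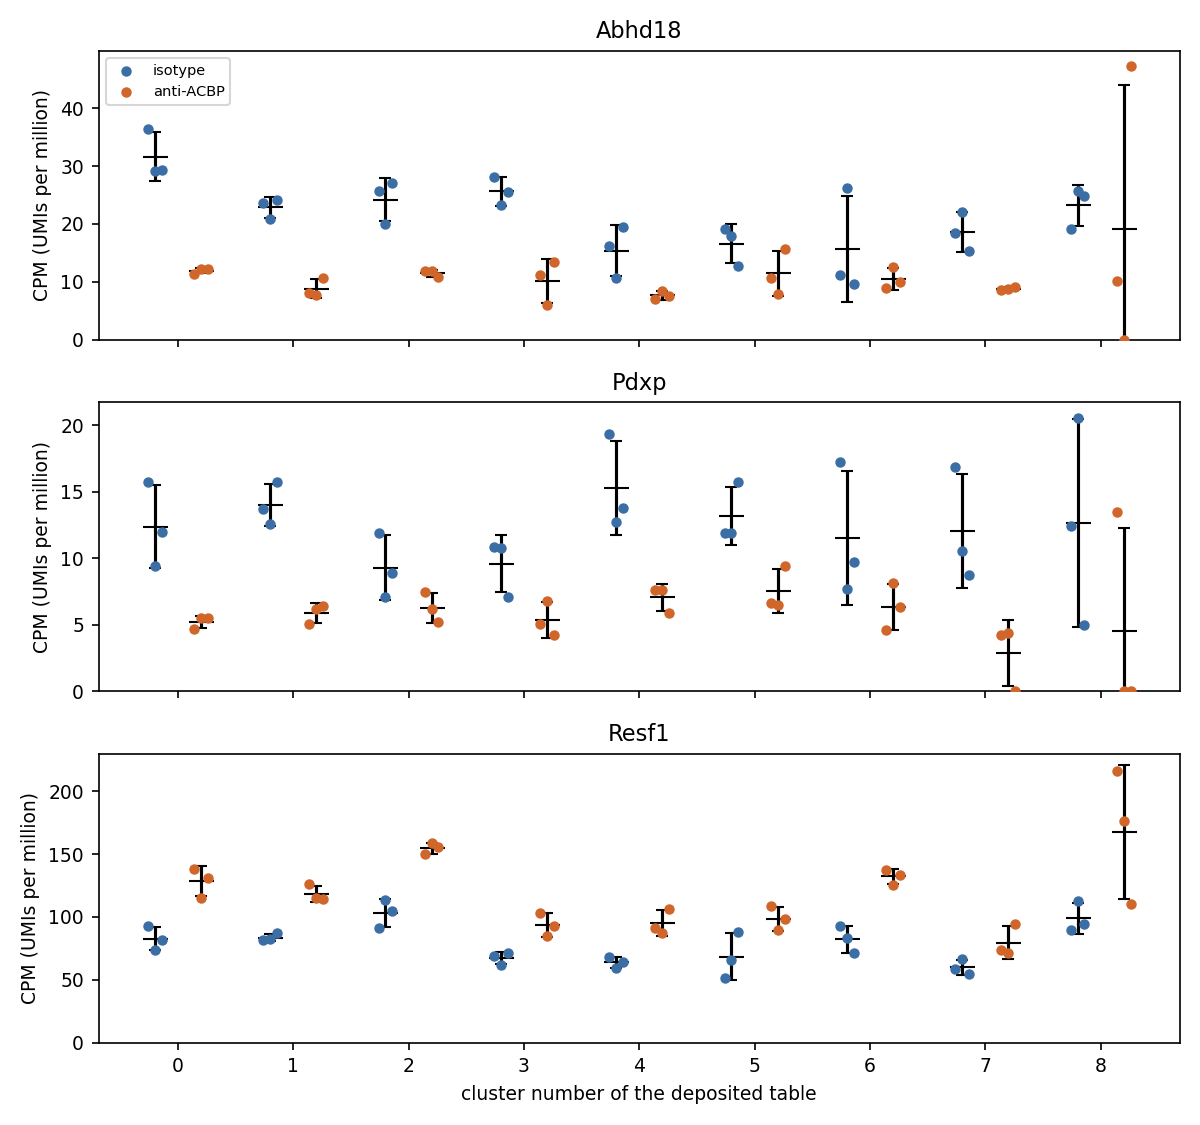
Level of each gene (CPM) by cluster number of the deposited table and by mouse; points are mice, the horizontal line is the mean of 3 mice and bars are 1 SD. Every cluster shows lower mean Abhd18 and Pdxp and higher mean Resf1 with anti-ACBP, and cluster 8 has the widest anti-ACBP bars.

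Cell composition differed between the groups in CD8 and regulatory T cells along with these genes. The share of CD8 cells called S or G2M was 30.4 to 43.9% in isotype and 27.5 to 28.0% in anti-ACBP mice, and in regulatory T cells 30.1 to 35.5% and 15.0 to 22.3%. The 4 cycling markers summed to 734 to 1009 CPM with isotype and 586 to 688 CPM with anti-ACBP in CD8 cells, and the 5 naive or memory markers to 317 to 363 and 439 to 523 CPM. In conventional CD4 T cells the groups overlapped in each of these. Their S or G2M share was 21.4 to 22.4% with isotype and 16.3 to 21.5% with anti-ACBP. There the cycling markers summed to 363 to 485 and 222 to 414 CPM, and the naive or memory markers to 699 to 1261 and 869 to 1149 CPM. In cells called G1 alone, the log2 fold changes were -1.36 for Abhd18, -1.20 for Pdxp and 0.51 for Resf1 in CD8, and -1.29, -1.30 and 0.49 in conventional CD4 T cells. In G1 regulatory T cells they were -1.21, -0.53 and 0.36, so the Resf1 difference was smaller there than over all regulatory T cells. With the clusters of the CD8 class at equal weight, the log2 ratios were -0.98, -0.89 and 0.59.

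Next, sets of cells were contrasted within each mouse by lineage, Foxp3, phase and clone size, with the mouse as a block. Treatment does not separate these sets, but they overlap the clusters over which the genes were also compared. In cluster 2, 81.0% of cells held a Foxp3 UMI, and the contrasts were chosen with earlier results known, so their p-values are not independent of the cluster levels above. CD8 lineage cells, those with more Cd8a plus Cd8b1 than Cd4 UMIs, were compared with cells that had more Cd4 UMIs, whatever their cluster. Abhd18 was higher in the CD8 lineage, with 29.9, 22.8 and 24.4 CPM in isotype mice against 22.2, 20.3 and 24.7 CPM in the CD4 lineage. In the anti-ACBP mice it had 10.5, 10.1 and 11.8 CPM in the CD8 lineage against 8.81, 9.51 and 11.7 CPM. It was higher in 5 of 6 mice, and the log2 fold change was 0.26 ± 0.07 (SE, adjusted p = 0.0137, edgeR). That call was lost without isotype mouse 1 (0.17, adjusted p = 0.0668, edgeR) and with DESeq2 (adjusted p = 0.0603). Pdxp and Resf1 did not pass, at 0.01 (95% interval -0.16 to 0.18) and -0.01 (-0.12 to 0.09). By CPM, Pdxp and Resf1 were each lower in the CD8 lineage in 5 of 6 mice. CPM is scaled without the TMM factors that enter the edgeR estimates, so the 2 scales differ. So 1 of the 3 genes was called, and 49.5% of all genes tested were called in this comparison.

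Within CD4 lineage cells, those with a UMI of Foxp3, the defining factor of regulatory T cells, were compared with those without. Resf1 was higher with Foxp3 in 6 of 6 mice. It stood at 84.9, 115 and 101 CPM against 68.1, 70.3 and 86.1 CPM in isotype mice, and at 144, 151 and 149 CPM against 114, 94.5 and 116 CPM in anti-ACBP mice. The log2 fold change was 0.32 ± 0.07 (SE, adjusted p = 0.00164, edgeR). Pdxp was lower with Foxp3 in 5 of 6 mice, by -0.55 ± 0.17 on the log2 scale (SE, adjusted p = 0.0161, edgeR). In isotype mice it was at 12.4, 7.85 and 8.69 CPM with Foxp3 against 14.4, 12.9 and 15.5 CPM without. In anti-ACBP mice it was at 7.56, 3.82 and 4.97 CPM against 5.45, 8.82 and 6.44 CPM, so mouse 1 went the other way. The Pdxp call was lost without isotype mouse 2 (adjusted p = 0.0686, edgeR) or isotype mouse 3 (adjusted p = 0.0602, edgeR). Abhd18 was 0.13 higher (95% interval -0.06 to 0.31) and did not pass. These were 2 of 3 genes, against 46.6% of all genes tested.

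Cells that the deposited table calls S or G2M were compared with cells called G1. Each rise or fall by phase is one of CPM, and S or G2M cells held more UMIs per cell. A lower CPM therefore need not mean fewer UMIs per cell. Without thinning, the share of CD8 cells with a Resf1 UMI was higher in S or G2M in every mouse (48.3% against 41.0% in isotype mouse 1). For Abhd18 that share was higher in all mice but isotype mouse 1 (20.1% against 20.9%). In CD8 T cells all 3 genes passed, where 60.6% of all genes tested did. Abhd18 fell in cycling CD8 cells of 6 of 6 mice, with a log2 fold change of -0.49 ± 0.07 (SE, adjusted p = 4.03e-07, edgeR). Its isotype levels were 22.6, 19.5 and 22.3 CPM in S or G2M against 34.1, 27.5 and 27.7 CPM in G1, and its anti-ACBP levels 8.05, 8.72 and 9.44 against 11.9, 10.8 and 13.2 CPM. Resf1 fell as well, in 6 of 6 mice, by -0.30 ± 0.03 on the log2 scale (SE, adjusted p = 2.12e-08, edgeR), from 77.9 to 128 CPM in G1 to 62.3 to 109 CPM in S or G2M over the 6 mice. Pdxp rose in 6 of 6 mice, by 0.37 ± 0.09 (SE, adjusted p = 0.00108, edgeR). It was at 17.6, 10.6 and 13.2 CPM in cycling isotype cells against 14.2, 9.47 and 9.59 CPM in G1 cells, and at 7.41, 7.16 and 6.01 CPM against 4.36, 5.89 and 5.21 CPM in anti-ACBP mice. Without the cells of cluster 4 the Pdxp difference was 0.26 and did not pass (adjusted p = 0.0616, edgeR).

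In conventional CD4 T cells Abhd18 fell in S or G2M by -0.65 ± 0.15 on the log2 scale (SE, adjusted p = 0.000396, edgeR), in 5 of 6 mice. Anti-ACBP mouse 2 was the exception, at 10.2 CPM in cycling and 7.03 CPM in G1 cells, from 15 and 34 UMIs. Resf1 fell by -0.25 ± 0.06 (SE, adjusted p = 0.000971, edgeR) in 6 of 6 mice, though in anti-ACBP mouse 3 the levels were 110 and 112 CPM. Pdxp was 0.06 higher (95% interval -0.24 to 0.36), up in 3 mice and down in 3, and did not pass. The number called was 2 of 3, against 37.4% of all genes tested. Without cluster 4 neither call remained, at -0.41 for Abhd18 (adjusted p = 0.0595, edgeR) and -0.15 for Resf1 (adjusted p = 0.10, edgeR).

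Regulatory T cells showed the widest phase difference of Resf1. It stood at 66.9 to 123 CPM in S or G2M and 120 to 181 CPM in G1 over the 6 mice, lower in 6 of 6, with a log2 fold change of -0.72 ± 0.07 (SE, adjusted p = 6.40e-11, edgeR). Abhd18 was lower in 6 of 6 mice too, by -0.60 ± 0.13 (SE, adjusted p = 0.000161, edgeR). Pdxp was higher by 0.65 ± 0.19 (SE, adjusted p = 0.00500, edgeR), with 14.1, 9.13 and 10.8 CPM in cycling isotype cells against 9.50, 6.18 and 6.68 CPM in G1. In anti-ACBP mice 1 and 2 it was at 10.7 and 8.09 CPM against 5.44 and 5.10 CPM. Anti-ACBP mouse 3 had no Pdxp UMI in its 50 cycling regulatory T cells, which allows up to 5.94 CPM, and 6.18 CPM in G1. The Pdxp call was lost without isotype mouse 1 (adjusted p = 0.0521, edgeR) and with DESeq2 (adjusted p = 0.106). All 3 genes were called here, where 55.9% of all genes tested were. Whether the phase differences vary between the classes was not tested.

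Without the mouse as a block, the difference between the treatment groups stays in the residual spread, and then 2 of the 11 lineage, Foxp3 and phase calls remained. Those were Pdxp (adjusted p = 0.0385, edgeR) and Resf1 (adjusted p = 0.000129, edgeR) by phase in regulatory T cells. The other adjusted p-values without the block ran from 0.156 to 0.626.

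**Figure D3:**
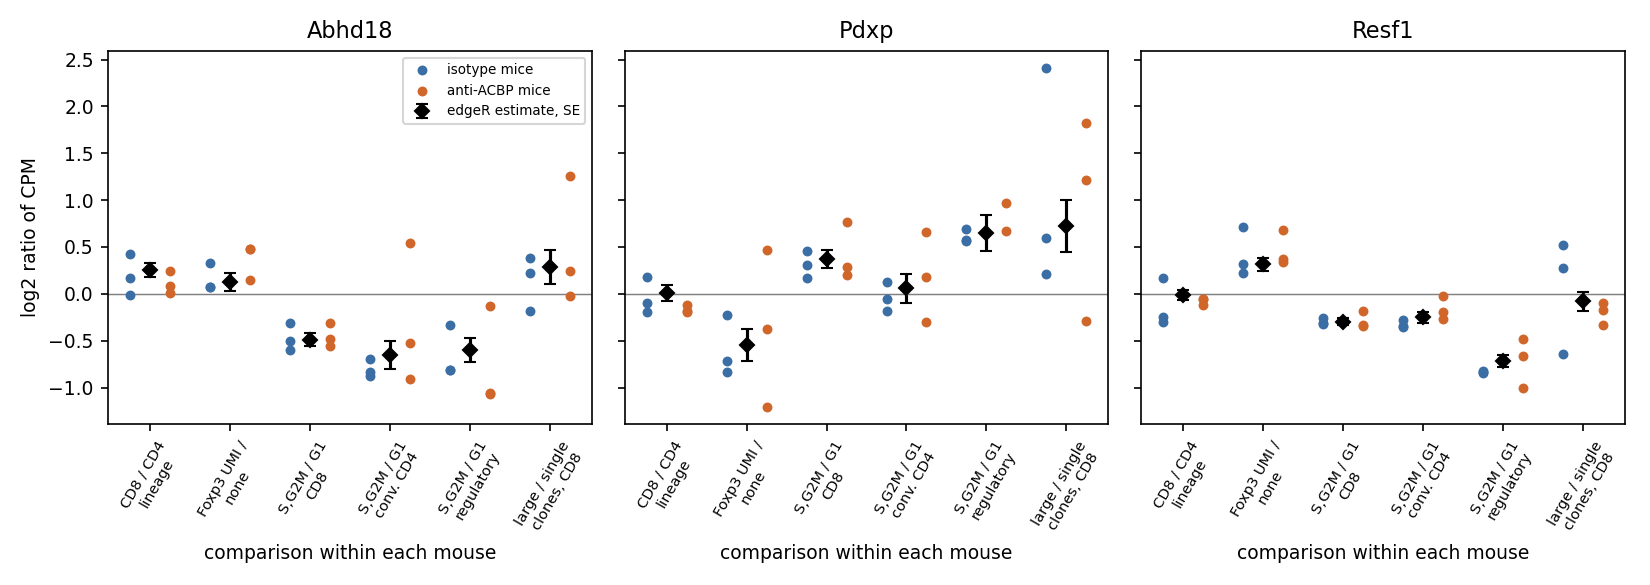
Log2 ratio of CPM between 2 sets of cells of the same mouse, for each gene and comparison; points are mice (1 mouse with no Pdxp UMI is left out), diamonds are edgeR estimates and bars are 1 SE. In S or G2M over G1, Abhd18 and Resf1 estimates lie below 0 in all 3 classes, and Pdxp estimates lie at or above 0.

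Receptor sequences gave a further contrast in CD8 T cells, between cells of clones with at least 5 cells in the mouse and cells of clones seen once. None of the 3 genes passed with edgeR, and 1 had an unadjusted p under 0.05, while 5.62% of all genes tested passed. Of all 11016 genes tested, 1851 had an unadjusted p under 0.05. Pdxp was at 16.4, 10.3 and 11.9 CPM in large clones of isotype mice and at 10.9, 1.94 and 10.3 CPM in single-cell clones, the latter from 12, 1 and 5 UMIs. In anti-ACBP mice it was at 5.68, 6.37 and 4.88 CPM against 1.61, 2.74 and 5.95 CPM, the latter from 2, 2 and 7 UMIs. It was higher in large clones of 5 of 6 mice, and anti-ACBP mouse 3 went the other way. Its log2 fold change was 0.72 (95% interval 0.18 to 1.27), with an edgeR p of 0.0134 and an adjusted p of 0.142. Abhd18 differed by 0.29 (-0.07 to 0.64) and Resf1 by -0.08 (-0.28 to 0.12). The single-cell clones held 96 to 173 cells per mouse.

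Over the 18 sums of 6 mice and 3 classes, log2 CPM of Abhd18 and Pdxp rose and fell together (Pearson r = 0.83), and both ran opposite to Resf1 (r = -0.65 and -0.81). These are descriptions, since the points share mice, library depth and the treatment split by which the genes were chosen. Among 7496 genes of at least 10 mean CPM, the patterns most like Abhd18 were those of Xist, the RNA that coats the inactive X chromosome (r = 0.95), and of the glycolytic enzymes Tpi1 (r = 0.95) and Pgam1 (r = 0.94). Pgam1 ran from 487 to 687 CPM in isotype and from 361 to 436 CPM in anti-ACBP sums. Nearest to Pdxp were Ankrd37, known as a hypoxia-inducible gene (r = 0.86), Pgam1 (r = 0.84) and Abhd18. Ankrd37 was at 108, 54.5 and 107 CPM in isotype CD8 cells and at 21.7, 10.9 and 18.4 CPM in anti-ACBP CD8 cells. Nearest to Resf1 were Pmm2, a phosphomannomutase of N-glycan synthesis (r = 0.96), Ddrgk1, a part of the UFM1 conjugation machinery (r = 0.95), and Cr1l, a complement regulator (r = 0.94). Over 49 sums by mouse and cluster, the correlation was 0.34 for Xist with Abhd18, 0.58 for Ankrd37 with Pdxp and 0.79 for Pmm2 with Resf1.

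The known partners of the 3 genes were examined in lists chosen by function. Across all genes edgeR called 0.929% in the CD8, 0.329% in the conventional CD4 and 3.34% in the regulatory class for anti-ACBP against isotype. An unadjusted edgeR p under 0.05 was far more common, so counts at that level are to be read against these. It was found for 2098 of 11732 genes in CD8, 1658 of 10933 in conventional CD4 and 2196 of 10417 in regulatory T cells. DESeq2 called 483, 207 and 487 of the same genes. Of the vitamin B6 enzymes other than Pdxp, edgeR called 0 of 27 in CD8 (5 at an unadjusted p under 0.05, 0 with DESeq2) and 0 of 26 in conventional CD4 T cells (6 and 0). Of 26 tested in regulatory T cells (9 and 2), 1 passed with edgeR, the aminotransferase Got1. It had 424 ± 16.6 CPM with isotype and 599 ± 44.6 CPM with anti-ACBP (SD, n = 3), and its log2 fold change was 0.48 ± 0.09 (SE). Pdxk, the kinase that makes pyridoxal phosphate and so opposes Pdxp, had 9.36 ± 1.20 CPM with isotype and 10.6 ± 1.06 CPM with anti-ACBP in CD8 cells. It did not pass. The median log2 fold change of the B6 list was 0.03, -0.03 and -0.08 in the 3 classes, against medians of all genes between -0.01 and 0.00.

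For cofilin, the other substrate of Pdxp, and its regulators, edgeR called 0 of 19 genes in each class. The unadjusted p was under 0.05 for 5, 5 and 4 of them, and DESeq2 called 2, 1 and 0. Cfl1, cofilin itself, had 1725 ± 60.4 CPM with isotype and 1697 ± 51.0 CPM with anti-ACBP in CD8 cells. Among relatives of Pdxp in the HAD superfamily, 1 of 21 in CD8 and 1 of 20 in conventional CD4 passed, in both Pmm2. Pmm2 rose from 18.9 ± 0.365 to 27.6 ± 1.23 CPM in CD8 and from 18.1 ± 1.01 to 29.1 ± 0.759 CPM in conventional CD4 T cells (log2 fold changes 0.52 ± 0.08 and 0.70 ± 0.11, SE). In regulatory T cells 1 of 19 passed, Pgp, the phosphoglycolate phosphatase that is closest kin to Pdxp. Pgp had 111, 74.8 and 103 CPM in the isotype mice and 58.0, 53.6 and 50.7 CPM in the anti-ACBP mice, with a log2 fold change of -0.85 ± 0.15 (SE, adjusted p = 0.0239, edgeR). The fall of Pgp was not particular to regulatory T cells. In cells called G1 it was -0.78 there, -0.71 in CD8 (adjusted p = 0.0669, edgeR) and -0.74 in conventional CD4 T cells (adjusted p = 0.0556, edgeR). Of the HAD list, 3, 2 and 5 genes had an unadjusted p under 0.05, and DESeq2 called 2, 2 and 1.

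Neither list set around Abhd18 held a called gene. For the other ABHD-type hydrolases edgeR called 0 of 17, 0 of 17 and 0 of 16, with 4, 3 and 4 at an unadjusted p under 0.05 and 0 with DESeq2 in each class. For cardiolipin synthesis, remodelling and transport it called 0 of 17 in each class, with 3, 1 and 4 at an unadjusted p under 0.05 and 0 with DESeq2. Crls1, the cardiolipin synthase, was at 12.4 ± 1.10 and 14.4 ± 0.876 CPM in CD8 cells.

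Among genes that act beside Resf1 in silencing, those called by edgeR were lower with anti-ACBP. That direction was called for 0.443% of all genes in CD8 and 1.3% in regulatory T cells. Of 33 retroelement silencing genes tested in CD8 T cells 1 passed, the replication-timing factor Rif1, which fell from 69.4 ± 3.53 to 52.4 ± 2.07 CPM (log2 fold change -0.43 ± 0.07, SE). In that class 14 of the 33 had an unadjusted edgeR p under 0.05, and DESeq2 called 4. In conventional CD4 T cells edgeR called 0 of 33, with 12 at an unadjusted p under 0.05 and 0 with DESeq2. In regulatory T cells 16 of 33 had an unadjusted edgeR p under 0.05, and DESeq2 called 7. With edgeR 3 of 33 passed there, and all were lower. They were the chromatin assembly subunit Chaf1a (36.5 ± 2.84 to 21.0 ± 2.62 CPM), Rif1 (82.0 ± 4.12 to 61.4 ± 1.60 CPM) and the maintenance methyltransferase Dnmt1 (113 ± 14.1 to 77.7 ± 9.46 CPM). The list's median was -0.15, -0.16 and -0.18 in the 3 classes. Chaf1a and Dnmt1 are known to be expressed in dividing cells, and the share of S or G2M cells was lower in the same mice; its part in these values was not tested. In cells called G1 alone none of the 3 passed in regulatory T cells. The log2 fold changes there were -0.07 ± 0.29 for Chaf1a (SE, adjusted p = 0.929, edgeR), -0.24 ± 0.12 for Dnmt1 (adjusted p = 0.349, edgeR) and -0.17 ± 0.12 for Rif1 (adjusted p = 0.495, edgeR). Setdb1, the methyltransferase with which Resf1 works, was at 11.3 ± 0.674 and 12.4 ± 0.462 CPM in CD8 cells and did not pass. Trim28, the corepressor that recruits Setdb1, was at 88.9 ± 2.36 and 86.0 ± 4.98 CPM and did not pass.

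The calls on list genes moved with single mice, although no direction changed. With each of the 6 mice left out in turn, Rif1 passed in 2 of 6 fits in CD8 and 1 of 6 in regulatory T cells, and Pmm2 in 2 of 6 in CD8 and 1 of 6 in conventional CD4 T cells. The regulatory T cell calls held in 4 of 6 fits for Chaf1a, in 3 of 6 for Got1, in 2 of 6 for Pgp and in 1 of 6 for Dnmt1. Neither Rif1 nor Pmm2 passed in CD8 cells without isotype mouse 3 or without any 1 of the 3 anti-ACBP mice, with adjusted p up to 0.180 for Rif1 and 0.171 for Pmm2 (edgeR). Pmm2 in conventional CD4 T cells passed only without isotype mouse 1 (up to 0.142 otherwise), and Rif1 and Dnmt1 in regulatory T cells only without isotype mouse 2 (up to 0.126 each). Got1 and Pgp did not pass without isotype mouse 3, anti-ACBP mouse 1 or anti-ACBP mouse 2, Pgp also not without anti-ACBP mouse 3 (up to 0.101 and 0.102), and Chaf1a not without anti-ACBP mouse 2 or 3 (up to 0.0722). In cells called G1 alone, Pgp (adjusted p = 0.0488, edgeR) was the only one of these calls that held, although several others changed little in size. There Pmm2 had a log2 fold change of 0.62 in conventional CD4 (adjusted p = 0.0518, edgeR) and 0.46 in CD8 T cells (adjusted p = 0.0556, edgeR). Rif1 had -0.38 in CD8 (adjusted p = 0.0724, edgeR) and Got1 0.38 in regulatory T cells (adjusted p = 0.107, edgeR). The number called over all genes in CD8 moved likewise, from 109 to 745 without isotype mouse 1 and to 0 without isotype mouse 3 with edgeR (1495 at an unadjusted p under 0.05, and 483 with DESeq2 on all 6 mice).

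By cell cycle phase most called genes of the silencing list went the opposite way to Resf1. In CD8 T cells 24 of 34 silencing genes were higher in S or G2M and 4 lower, with a median of 0.34 against -0.03 for all genes, where Resf1 was lower. Over all genes tested there, 29.7% were called higher and 30.9% lower. The genes behind the deposited phase call are not known here. List members with the smallest p, such as Hells and Uhrf1, may be among them. The rise of such members would be fixed by the call, so these counts are descriptions, as are those of the other lists by phase. Trim28 was higher in S or G2M by 0.67 ± 0.03 on the log2 scale (SE, adjusted p = 2.51e-16, edgeR) and Setdb1 by 0.31 ± 0.08 (SE, adjusted p = 0.00188, edgeR), the latter lost with DESeq2. Atf7ip, the stabilising partner of Setdb1, was lower, by -0.20 ± 0.04 (SE, adjusted p = 9.67e-05, edgeR). The regulatory T cells had 22 of 33 higher and 4 lower, against 29.7% and 26.2% of all genes. The cardiolipin list was mixed in CD8 cells, with 6 of 17 higher and 5 lower in S or G2M, and the B6 list had 12 of 27 higher and 8 lower. Pdxk and Pdxp were both higher in S or G2M of CD8 T cells, Pdxk by 0.45 ± 0.08 (SE, adjusted p = 3.34e-05, edgeR). Partners outside the called list members were picked for their role after list counts were known.

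Of the 11 nearest protein-coding genes tested on the chromosomes, edgeR called 0 in each class, with 3, 3 and 2 at an unadjusted p under 0.05 and 1, 0 and 0 called by DESeq2. The counts over all genes are those given with the lists above. Their log2 fold changes ran from -0.62 to 0.51. Sh3bp1, whose RefSeq end lies 108 bases from the first base of the Pdxp gene span, had -0.23 ± 0.10, -0.29 ± 0.11 and -0.29 ± 0.10 (SE) in CD8, conventional CD4 and regulatory T cells. Lgals1, galectin-1, starts 7208 bases beyond Pdxp and had 0.14 ± 0.14 in CD8 cells. Plk4, a centriole kinase 54212 bases from Abhd18, had -0.50 ± 0.11, -0.49 ± 0.19 and -0.62 ± 0.18 (SE). Mfsd8, a lysosomal membrane protein nearer to Abhd18 at 24215 bases, had 0.29 ± 0.16 in CD8 cells. The closest genes to Resf1 are 73161 bases or more away, and Bicd1 and Amn1 had 0.06 ± 0.47 and 0.17 ± 0.12 in CD8 cells.

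Overlapping annotations touch 2 of the genes. The lncRNA 6430590A07Rik at chr3:40885857-40894104 overlaps Abhd18 and its promoter window, and was at 3.10 ± 0.435 and 5.33 ± 1.25 CPM in CD8 cells, opposite in direction to Abhd18 (log2 fold change 0.75 ± 0.21, SE, adjusted p = 0.117, edgeR). The small gene 1700034I23Rik lies within Abhd18 and was at 0.418 ± 0.118 and 0.0149 ± 0.0258 CPM, too low to be tested. The lncRNA Gm30368 overlaps Pdxp and is not among the symbols of the matrices used here. The sources used here do not give how reads were assigned where genes overlap.

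**Figure D4:**
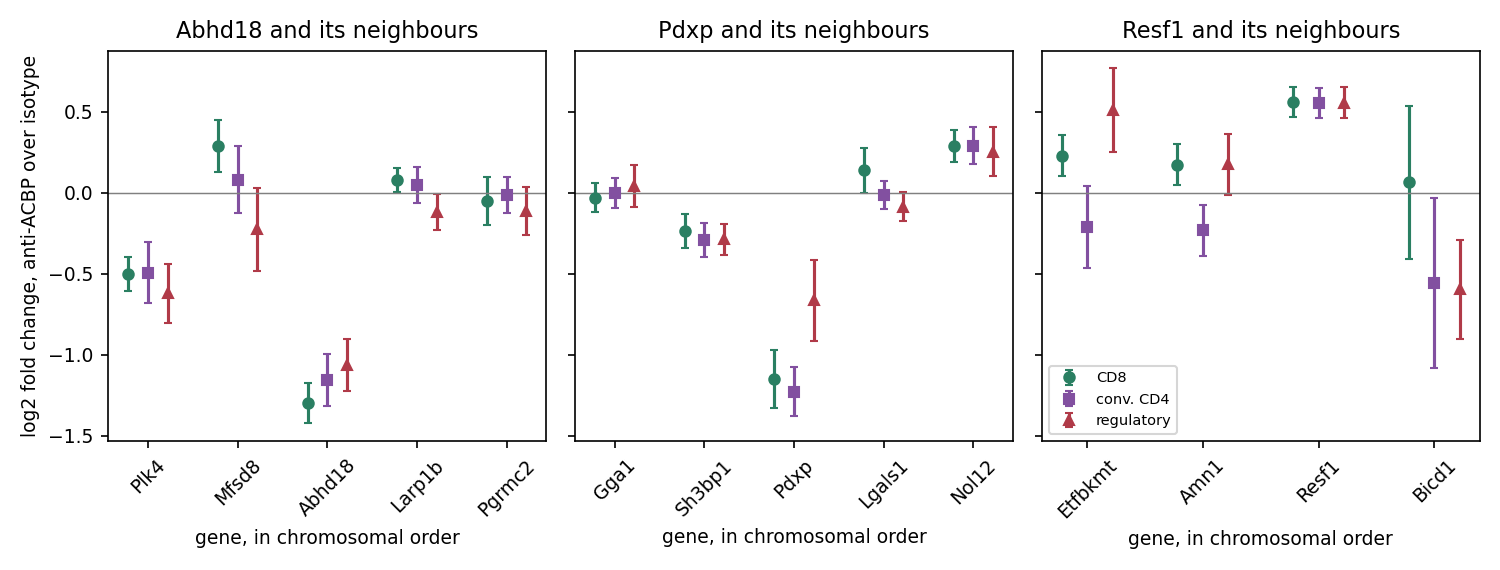
Log2 fold change of anti-ACBP over isotype (edgeR estimate, bars 1 SE) for each of the 3 genes and its nearest tested protein-coding neighbours in chromosomal order, by T cell class. Abhd18, Pdxp and Resf1 are shown beside neighbours between -0.62 and 0.51. The bars of Resf1 overlap those of Etfbkmt in regulatory T cells and of Bicd1 in CD8 T cells.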

How the data were processed

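Expression (5′, single-cell) and receptor libraries were built from sorted tumour T cells, as the labels' protocols state, and each of the 6 library pairs is taken as 1 mouse. The matrices as deposited hold raw UMI counts, and Cell Ranger 7.0.0, Seurat and mm10 are listed in the submitters' processing notes, with no role given. The authors' deposited cell table supplies other per-cell values (cluster, phase and DF1, a flag that the sources used here do not explain). DF1 was FALSE in 2407 cells, which were kept. Its UMI totals equalled the matrix sums in all 30749 cells, and no cell had fewer than 800 genes.

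The CD8 class was made of clusters 0, 3 and 6, the conventional CD4 class of 1 and 7, and the regulatory class of 2. Cells of clusters 4, 5 and 8 went by their own Cd4, Cd8a, Cd8b1 and Foxp3 UMIs. In cluster 1, 70.6% of cells had more Cd4 and 14.7% more Cd8 UMIs, and in cluster 3 14.0% and 84.9%. With only cells whose own UMIs match the class, the log2 fold changes in conventional CD4 T cells were -1.11 for Abhd18, -1.20 for Pdxp and 0.59 for Resf1. Counts were summed per mouse and class and fitted over all genes with edgeR 4.0.16 (quasi-likelihood F test, TMM, filterByExpr), two-sided, with Benjamini-Hochberg adjustment at 0.05. DESeq2 1.42.0 was an alternative. A 95% interval is taken from the estimate and its SE with a normal quantile, so it is narrower than the edgeR F test would give. Clones share 1 TRB chain, V gene and CDR3 nucleotides. Doublets were addressed by leaving out the 1028 cells with 2 or more TRB chains, and no caller was run. The code was tested on simulated data.

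The genes, lists, motifs and tests were chosen with earlier results of these data known. Named are the 3 genes, 2 neighbours per side, the 3 most similar genes each and up to 4 called members per list and class.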

Additional observations from a re-analysis of the deposited data

How the results depend on the processing

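Over the alternatives run, Abhd18 and Pdxp stayed lower and Resf1 higher with anti-ACBP in each of the 3 classes. Their values moved by more than 1 SD between mice (log2 CPM, pooled over the groups) in 3 cases, with clusters at equal weight for CD8 Abhd18 (-0.98) and Pdxp (-0.89), and in G1 cells for regulatory Resf1 (0.36). Leaving out each mouse gave -1.38 to -1.17 for Abhd18, -1.28 to -0.93 for Pdxp and 0.49 to 0.65 for Resf1 in CD8 cells. The number of all genes called depended on the setting far more than these values. In CD8 it was 109, and 483 with DESeq2, 354 with no filter on low counts, 47 with DF1 TRUE cells alone, and 0 to 745 without 1 mouse. In conventional CD4 T cells it was 36, and 207 with DESeq2, 295 with no filter, 4 with cells whose own UMIs match the class, and 2 to 139 without 1 mouse. In regulatory T cells it was 348, and 819 with no filter, 213 with cells whose own UMIs match the class, 159 in G1 cells, and 44 to 774 without 1 mouse. The cause of these shifts was not tested.

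Deviations of same-numbered mice correlated between -0.17 and 0.24, and no pairing by the labels' numbers was used in the main fits. With 3 mice per group, these values cannot exclude a pairing. With the replicate number as a block, edgeR called 159 genes for CD8, 10 for conventional CD4 and 363 for regulatory cells. Isotype mouse 1 correlated best with its own number in CD8 (0.22) and regulatory T cells (0.24), and no other isotype mouse did so in any class.

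Without the mouse as a block, the values were 0.25 for Abhd18 by lineage (adjusted p = 0.626, edgeR), -0.47 for Pdxp and 0.33 for Resf1 by Foxp3, and -0.45, 0.37 and -0.30 for Abhd18, Pdxp and Resf1 by phase in CD8. They were -0.59 for Abhd18 and -0.24 for Resf1 by phase in conventional CD4, and -0.45 for Abhd18 in regulatory T cells. Genes called without that block numbered 4047 by lineage, 4536 by phase in CD8, 2031 by phase in conventional CD4 and 170 by clone size. Phase in conventional CD4 T cells gave 2546 called genes with DESeq2 and 1974 without cluster 4.

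Calls lost with DESeq2 were Abhd18 by lineage (0.24) and Pdxp by phase in regulatory T cells (0.56). Calls lost without cluster 4 were Pdxp by phase in CD8 (0.26) and Abhd18 (-0.41) and Resf1 (-0.15) by phase in conventional CD4. Leaving out each mouse gave 0.17 to 0.29 for Abhd18 by lineage, -0.70 to -0.45 for Pdxp by Foxp3 and 0.59 to 0.70 for Pdxp by phase in regulatory T cells. The 3 near-zero values changed sign and passed under no setting. Pdxp by lineage was -0.0098 with DESeq2 and -0.078 to 0.035 without 1 mouse, Resf1 by lineage 0.0033 with no filter and -0.076 to 0.013 without 1 mouse, and Pdxp by phase in conventional CD4 -0.082 without cluster 4 and -0.038 to 0.13 without 1 mouse. Leaving out cells with 2 or more TRB chains was not run for clone size, since a clone needs 1 TRB chain. Depth limits Pdxp most, with 12 to 195 UMIs per library in regulatory T cells.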

Other observations

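The 3 genes were also counted in the barcodes that the authors' cell table leaves out, which enter no comparison. Per library there were 4953 to 8146 of them, with a median of 582 to 995 UMIs. Their sums held RNA of T cells and of other cells, with Cd3e at 258 to 683 CPM and Sparc, a fibroblast transcript, at 236 to 626 CPM. For Abhd18 they gave 13.4 ± 4.40 CPM with isotype and 7.45 ± 0.920 CPM with anti-ACBP (SD, n = 3), and for Pdxp 14.9 ± 3.10 and 9.42 ± 1.71 CPM. Resf1 stood at 121 ± 4.08 and 155 ± 3.53 CPM.

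Over the 49 sums by mouse and cluster, other genes than over the 18 sums by class came first. Slc2a1, the main glucose transporter of activated T cells, was the most similar to Abhd18 (r = 0.78), followed by Zfp292 (r = 0.75) and the phosphofructokinase gene Pfkl (r = 0.73). For Pdxp these were Cdkn2d, a cyclin-dependent kinase inhibitor (r = 0.67), Tial1 (r = 0.64) and Rlf (r = 0.63). For Resf1 they were Frmd4b (r = 0.85), the interferon-induced GTPase Ifi47 (r = 0.85) and Sgk1 (r = 0.84). These points share mice, depth and the treatment split, so the coefficients are descriptions.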
